A study of Mus musculus with 9 samples.

Results

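The genes described here are Trp53, which encodes the transcription factor p53, and 8 of its well-known targets: Rps27l, Cdkn1a, Mdm2, Ccng1, Phlda3, Sesn2, Aen and Zmat3. They were taken by name, with the transcripts of each gene summed, in all 9 libraries of the series. All 9 genes were among the 24133 that passed the filter on low counts, of 53458 genes in all. RNA had been sequenced from conventional type 1 dendritic cells (cDC1), which take up antigen and show it to CD8+ T cells, out of lymph nodes beside the mouse pancreas. The libraries fell into 3 stages of 3 libraries each: Healthy, PanIN (nodes draining an early lesion, pancreatic intraepithelial neoplasia) and Tumor (nodes draining a tumor). KPC, in the series title, is the usual name of a mouse model of pancreatic cancer in which a Cre recombinase switches on a mutant Trp53 allele in pancreatic cells. The labels used here give neither the alleles, the Cre driver, the ages nor the genotype of the Healthy mice, so Trp53 genotype and stage cannot be told apart. They also do not say whether a library came from 1 animal or a pool, so a p-value here reflects library-to-library spread, part of which may be technical.

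p53 is made all the time and destroyed all the time. The ubiquitin ligase Mdm2 binds it and marks it for degradation, and its relative Mdm4 blocks its activity. After DNA damage or other stress, kinases such as ATM and ATR free p53 from Mdm2, and p53 then binds DNA as a tetramer and switches on its targets, Mdm2 among them. Most control of p53 is therefore at the protein, so the level of Trp53 RNA is not a measure of p53 activity, and some targets, Cdkn1a and Sesn2 among them, are also switched on by other factors.

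p53 binds a response element made of 2 copies of a palindromic 10-base unit, the p53 decamer. The sequence before the start of each gene was searched for it, and 3 of the genes held an almost perfect element there. The genes were chosen as known p53 targets, so their matches carry no test against other windows. RefSeq promoter windows (GRCm38.p6, 300 bases from 250 before to 50 after a start) were at hand for 8 of the 9 genes, in 11 windows, and Zmat3 was the other. Among all 32817 mouse windows, 8.36% held an exact decamer, 1.38% held 2 adjacent decamers with at most 3 mismatches in 20 bases, and 0.326% held them with at most 2. Being palindromic, the decamer reads the same on both strands, and each 20-base element contains its own decamers. The 250 bases before 4 starts are printed 5′ to 3′ on the strand of the gene, with the element in capitals, to show where it lies in Cdkn1a, Rps27l and Ccng1 and that the start that makes nearly all Cdkn1a RNA has none in this window.
Cdkn1a, upstream start, chr17:29090729-29090978, plus strand: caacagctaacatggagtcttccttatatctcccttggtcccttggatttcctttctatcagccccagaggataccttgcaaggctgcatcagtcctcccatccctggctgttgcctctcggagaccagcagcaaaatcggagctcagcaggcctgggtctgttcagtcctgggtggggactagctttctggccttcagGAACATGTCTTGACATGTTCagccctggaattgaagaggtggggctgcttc
Cdkn1a, main start, chr17:29093519-29093768, plus strand: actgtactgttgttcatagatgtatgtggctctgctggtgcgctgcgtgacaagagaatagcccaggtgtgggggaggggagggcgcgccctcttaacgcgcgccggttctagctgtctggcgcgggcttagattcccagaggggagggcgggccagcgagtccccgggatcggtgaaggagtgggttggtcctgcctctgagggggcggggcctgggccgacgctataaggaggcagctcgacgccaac
Rps27l, later start, chr9:66946163-66946412, plus strand: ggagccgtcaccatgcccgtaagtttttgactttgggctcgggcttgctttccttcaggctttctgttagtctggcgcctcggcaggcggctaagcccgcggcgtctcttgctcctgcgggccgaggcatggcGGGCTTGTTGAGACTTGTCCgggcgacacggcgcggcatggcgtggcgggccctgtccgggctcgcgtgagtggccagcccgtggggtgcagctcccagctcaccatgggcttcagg
Ccng1, chr11:40755287-40755536, minus strand: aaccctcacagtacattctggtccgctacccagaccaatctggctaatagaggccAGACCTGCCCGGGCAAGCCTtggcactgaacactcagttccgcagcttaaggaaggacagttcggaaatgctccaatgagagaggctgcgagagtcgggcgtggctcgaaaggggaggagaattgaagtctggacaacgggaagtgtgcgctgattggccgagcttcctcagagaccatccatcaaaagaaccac
Each of the 3 elements had 1 mismatch in 20 bases. They began 51 bases before the upstream Cdkn1a start, 117 bases before the later Rps27l start, which lies inside the gene, and 195 bases before the Ccng1 start. The main Cdkn1a start lies 2793 bases past the first annotated start, so the Cdkn1a element also lies before it, outside its window. Which start that element serves was not tested. Trp53 itself held GGACTTGCCCTTACTTGTTA and Aen held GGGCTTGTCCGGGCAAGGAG, each with 3 mismatches. The Mdm2 window held 1 exact decamer, GAACTTGCCT, without a neighbour, and the windows of Phlda3 and Sesn2 and of the first Rps27l start held none. These matches describe letters in a short window. They are not evidence of binding, and elements farther away or inside the genes were not searched.

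Every library held the genes that define cDC1, with Irf8 between 1030 and 3330 CPM and Xcr1 between 249 and 1080 CPM (counts divided by the library's scaled total, with TMM factors). Depths ran from 32150281 to 68934430 estimated counts. Healthy 2 and Healthy 3 lay at opposite ends of the first principal component, which took 28.3% of the variance. Dendritic cell maturation differed between libraries: the mean log2 CPM of 14 maturation genes, such as the homing receptor Ccr7, was 8.03, 5.59 and 7.18 across the Healthy libraries, 8.31, 7.98 and 7.46 across PanIN and 8.99, 8.25 and 8.76 across Tumor. Markers of other cells differed between libraries, and some between stages. The 7 monocyte and macrophage markers summed to 281 to 563 CPM in Healthy, highest in Healthy 2, to 193 to 337 CPM in PanIN and to 123 to 199.8 CPM in Tumor, and none of the 7 was at 0 in any library. The 4 plasmacytoid dendritic cell markers summed to 108.5 to 140.3 CPM in Healthy, 82.4 to 130.4 CPM in PanIN and 79.9 to 106 CPM in Tumor. Of 7 acinar markers, the 5 tested summed to 4.21 to 12.6 CPM in the 3 PanIN libraries and to at most 1.85 CPM in the other 6. Of the 7, 6 were at 0 in at least 1 library. Of 9 neutrophil markers, the 7 tested summed to 43.0 and 29.9 CPM in PanIN 2 and PanIN 3 and to at most 9.85 CPM elsewhere. Of the 9, 5 were at 0 in at least 1 library. The 6 T cell markers ran from 24.0 CPM in Healthy 3 to 216 CPM in Tumor 1, with all 3 stages overlapping. The summed level of 6 epithelial markers was 102 CPM in Tumor 1 and 8.61 to 14.6 CPM in the other 8 libraries, and none of the 6 was at 0 in any library. The 5 plasma cell markers summed to 15.7 to 40.6 CPM in Healthy, 34.5 to 78.5 CPM in PanIN and 14.8 to 219 CPM in Tumor, with Tumor 1 highest and Tnfrsf17 at 0 in Tumor 3 and Healthy 1. The 8 B cell markers reached 236 CPM in PanIN 2 against at most 63.9 CPM elsewhere. One title code was shared by Tumor 1, PanIN 1 and Healthy 1, and values within and outside it are given below.

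Per length, Rps27l was far above the rest. TPM, a measure of transcript abundance corrected for length and depth, put Rps27l at 110 to 301 TPM, above the other 8 genes in every library. Trp53 averaged 26.8 TPM over the 9 libraries (range 12.0 to 49.3), Mdm2 21.8 TPM (12.3 to 28.8), Ccng1 20.7 TPM (14.4 to 34.5) and Cdkn1a 18.7 TPM (5.01 to 31.4). These 4 ranges overlapped, so no order among them held across libraries. Aen followed with 8.80 TPM (6.01 to 15.3), and lay in every library above Sesn2 at 3.48 TPM (2.40 to 5.03). That order rests in part on few reads. The short transcripts Aen-206 and Aen-208 held on average 26.7% and 20.1% of Aen TPM, but 3.2% and 0.71% of its counts. In CPM, which is not corrected for length, Sesn2 lay above Aen in all libraries but Healthy 2. Zmat3 had 1.97 TPM (1.24 to 3.41) and Phlda3 1.28 TPM (0.535 to 2.05). The order of these means did not hold in every library: Zmat3 was above Sesn2 in Healthy 3, Phlda3 was above Zmat3 in Tumor 1 and Tumor 2, and Aen was above Cdkn1a in Healthy 2. Phlda3, with 46 to 348 counts, was the least precisely counted gene, and the other 8 had at least 448 counts in every library.

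**Figure D1:**
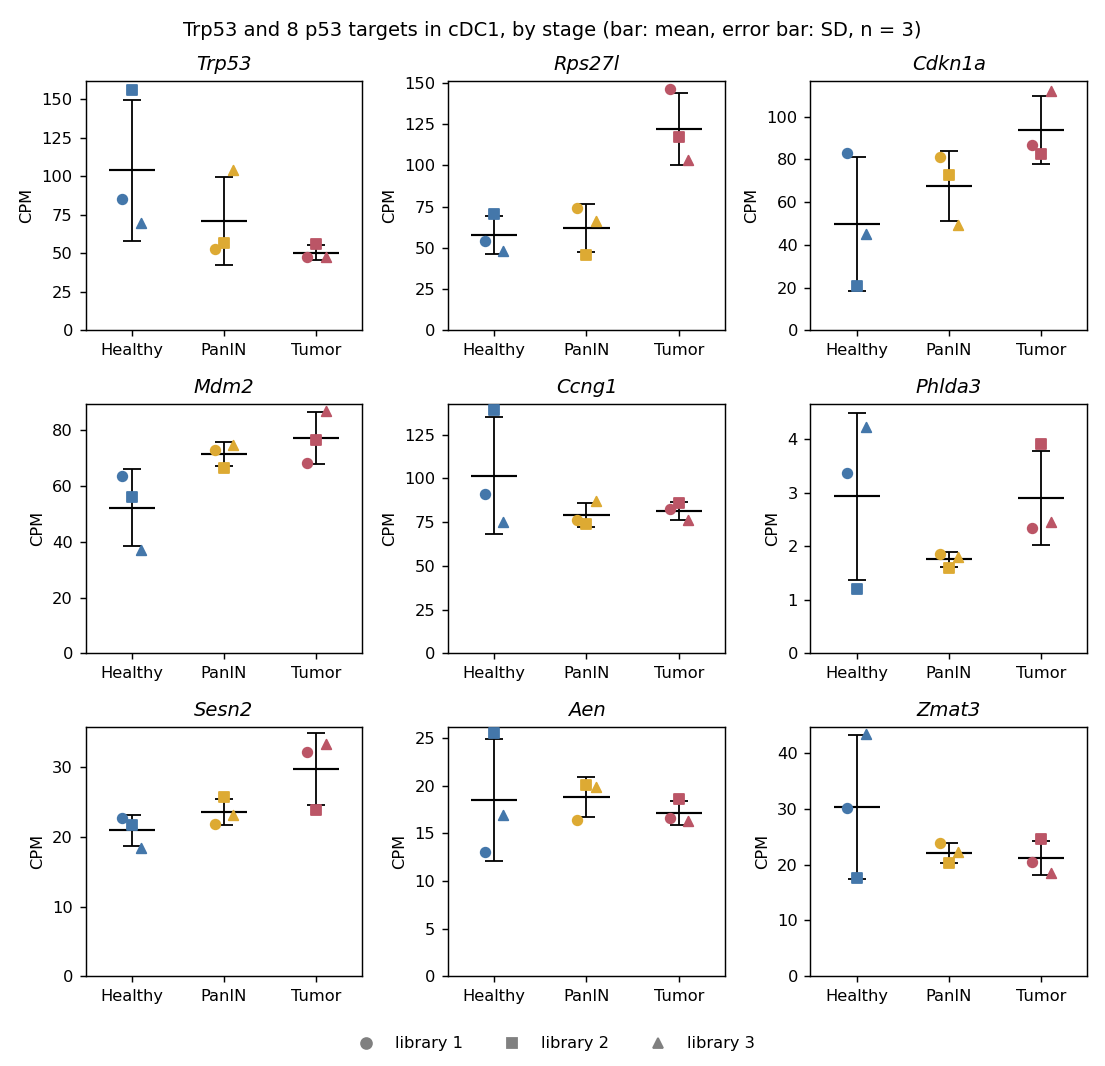
Levels of Trp53 and 8 p53 targets in CPM (y axes, from 0) by stage (x axes), with a point for each library, a bar for the mean and an error bar for the SD of 3 libraries. The 3 Tumor libraries of Rps27l, at 103 to 146 CPM, lay above all 6 others, and those of Trp53, at 47.3 to 55.9 CPM, lay below all 3 Healthy libraries.

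Tumor against Healthy set the ends of the series against each other. Trp53 RNA was lower and Rps27l RNA higher, each by about the same amount on the log2 scale, and Cdkn1a, Mdm2 and Sesn2 leaned higher. None of the 9 passed edgeR's quasi-likelihood test after Benjamini-Hochberg adjustment over all 24133 genes, in which 6 genes, 0.0249%, passed. Before adjustment 5 of the 9 had p under 0.05 (4 higher, 1 lower), where 17.8% of all genes did (6.82% higher and 11.0% lower). In CPM, the 3 Tumor libraries did not overlap the 3 Healthy ones in 4 of the 9, against 18.1% of all genes. Among the 4, Rps27l, Mdm2 and Sesn2 were higher, as were 9.02% of all genes, and Trp53 was lower, as were 9.06%. On TPM, Rps27l and Trp53 still did not overlap, but Mdm2 and Sesn2 did. In the test of any difference among the 3 stages, 5 genes, 0.0207%, passed, and none of the 9 was among them. The median log2 fold change was -0.02 over the 9 genes and -0.11 over all genes tested. These counts describe genes chosen with earlier results in view, and carry no test of their own.

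Trp53 stood at 47.9, 55.9 and 47.3 CPM in the Tumor libraries, against 85.5, 156 and 69.7 CPM in the Healthy libraries. All 3 Tumor libraries were below all 3 Healthy ones, and Healthy 2 was far above the other Healthy libraries. The log2 fold change was -1.04 (SE 0.33), with an unadjusted p of 0.00873 and an adjusted p of 0.168 by edgeR. With no filter on low counts it passed (adjusted p = 0.0433), and by DESeq2 it did not (0.0501), and the alternatives ran from 0.0433 to 0.747. PanIN libraries had 52.5, 56.4 and 104 CPM: PanIN 1 and PanIN 2 resembled Tumor, and PanIN 3 lay among the Healthy values. Without Healthy 2 the log2 fold change of Tumor against Healthy was -0.62. It was -0.84 within the shared title code, where each stage has 1 library and no test is possible, and -1.09 among the other 6 libraries. Bulk RNA cannot tell fewer cells with Trp53 RNA apart from less of it in each cell. With a term for the maturation mean in the fit, the log2 fold change was -0.17 (adjusted p = 0.747 by edgeR). The summed monocyte and macrophage markers were likewise lower in all 3 Tumor than in all 3 Healthy libraries and highest in Healthy 2, and their part in the Trp53 values was not tested.

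Rps27l encodes a ribosomal protein of the S27 family that p53 induces and that is known to affect the stability of Mdm2 and p53. It stood at 146, 117 and 103 CPM in the Tumor libraries, against 54.3, 70.4 and 48.0 CPM in the Healthy libraries and 74.3, 45.6 and 66.1 CPM in PanIN. Every Tumor library lay above all 6 others, and PanIN and Healthy overlapped. The log2 fold change of Tumor against Healthy was 1.08 (SE 0.25), a 2.12-fold difference, with an unadjusted p of 0.000975 and an adjusted p of 0.168 by edgeR. DESeq2 called it (adjusted p = 0.0125), as did edgeR with no filter on low counts (0.0234), edgeR without Healthy 2 (0.0163) and limma-voom with sample weights (0.0228), and the adjusted p ranged from 0.0125 to 0.433 over all alternatives. Tumor 1 was highest in Rps27l and in epithelial markers, and the log2 fold change without it was 0.94. It was 1.43 within the shared title code and 0.92 among the other 6 libraries, and 1.29 with the maturation term. Of the 31-base words of its main transcript, 29.6% also occur in 5 other genes, and those 5 genes together had at most 1 count in any library. The paralog Rps27, of which 30.8% of words are shared with 14 other genes and whose counts are therefore uncertain, stood at 7.43 to 15.3 CPM in Tumor, against 3.68 to 6.34 CPM in Healthy (log2 fold change 0.95, SE 0.39, unadjusted p = 0.0312, adjusted p = 0.235 by edgeR).

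Cdkn1a encodes p21, the inhibitor of cyclin-dependent kinases through which p53 halts the cell cycle. Tumor libraries had 86.7, 82.4 and 112 CPM, against 83.0, 21.0 and 45.3 CPM in Healthy. Healthy 1 lay inside the range of Tumor, and Healthy 2 was the lowest of all 9. The log2 fold change was 0.91 (SE 0.39, unadjusted p = 0.0389, adjusted p = 0.254 by edgeR). Without Healthy 2 it was 0.55, and without Healthy 1 it was 1.50. Within the shared title code it was 0.06, against 1.55 among the other 6 libraries, and with the maturation term it was -0.19. PanIN libraries had 81.0, 72.5 and 49.3 CPM, all below the 3 Tumor libraries, but on TPM these stages overlapped.

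Mdm2, the ligase that degrades p53, stood at 68.4, 76.6 and 87.0 CPM in Tumor, against 63.7, 56.2 and 37.1 CPM in Healthy. PanIN had 72.9, 66.6 and 74.8 CPM. In CPM, the Tumor and the PanIN libraries all lay above the Healthy ones, and Tumor and PanIN overlapped. On TPM, PanIN still lay above Healthy, but Tumor (15.7, 18.9 and 28.8) overlapped Healthy (24.1, 17.3 and 12.3). The log2 fold change was 0.56 (SE 0.23, unadjusted p = 0.0309, adjusted p = 0.234) for Tumor against Healthy and 0.45 (SE 0.23, unadjusted p = 0.0751, adjusted p = 0.521) for PanIN against Healthy, both by edgeR. Tumor 1 and Healthy 1, of the shared title code, differed by 0.10, and without Healthy 3, the lowest library, it was 0.38.

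Sesn2 encodes sestrin 2, which restrains the growth kinase complex mTORC1 and is also induced by the integrated stress response. It had 32.2, 23.9 and 33.4 CPM in Tumor, against 22.8, 21.7 and 18.5 CPM in Healthy, with no overlap, and 21.9, 25.7 and 23.2 CPM in PanIN. On TPM, Tumor and Healthy overlapped, with Tumor 2 at 2.92 and Healthy 1 at 3.15. The log2 fold change of Tumor against Healthy was 0.51 (SE 0.22, unadjusted p = 0.0425, adjusted p = 0.264 by edgeR), and 0.50 within the shared title code. The other 2 sestrin genes did not share this direction. Sesn3 stood at 54.8, 49.7 and 44.9 CPM in Tumor, against 73.4, 79.5 and 82.0 CPM in Healthy (log2 fold change -0.65, SE 0.20, unadjusted p = 0.0064, adjusted p = 0.168 by edgeR), and Sesn1 at 9.50 to 13.0 CPM against 13.4 to 16.9 CPM (log2 fold change -0.38, SE 0.27, unadjusted p = 0.19). In the list of 6 genes of the integrated stress response, the transcription factors Atf4 and Ddit3 were higher in Tumor at an unadjusted p under 0.05, as were 6.82% of all genes (log2 fold changes 0.67 and 0.77, adjusted p = 0.179 and 0.202 by edgeR), and the other 4 were not.

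The remaining 4 targets had no unadjusted p under 0.05 in any of the 3 comparisons. Ccng1, which encodes cyclin G1, a regulator of Mdm2, had 81.6 ± 5.11 CPM in Tumor and 102 ± 33.4 CPM in Healthy (SD, n = 3 each), with Healthy 2 at 139 CPM. Zmat3, an RNA-binding zinc finger protein, had 21.2 ± 3.10 CPM in Tumor and 30.4 ± 12.9 CPM in Healthy, where it ran from 17.6 CPM in Healthy 2 to 43.4 CPM in Healthy 3. Aen, an exonuclease that acts in apoptosis, had 17.2 ± 1.28 CPM in Tumor and 18.5 ± 6.41 CPM in Healthy. Phlda3, an inhibitor of the survival kinase Akt, had 2.90 ± 0.88 CPM in Tumor and 2.94 ± 1.56 CPM in Healthy. The log2 fold changes of Tumor against Healthy were -0.32 (SE 0.24) for Ccng1, -0.52 (SE 0.30) for Zmat3, -0.11 (SE 0.28) for Aen and -0.02 (SE 0.52) for Phlda3. The Healthy libraries spread more widely than the Tumor libraries in all 4 genes.

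**Figure D2:**
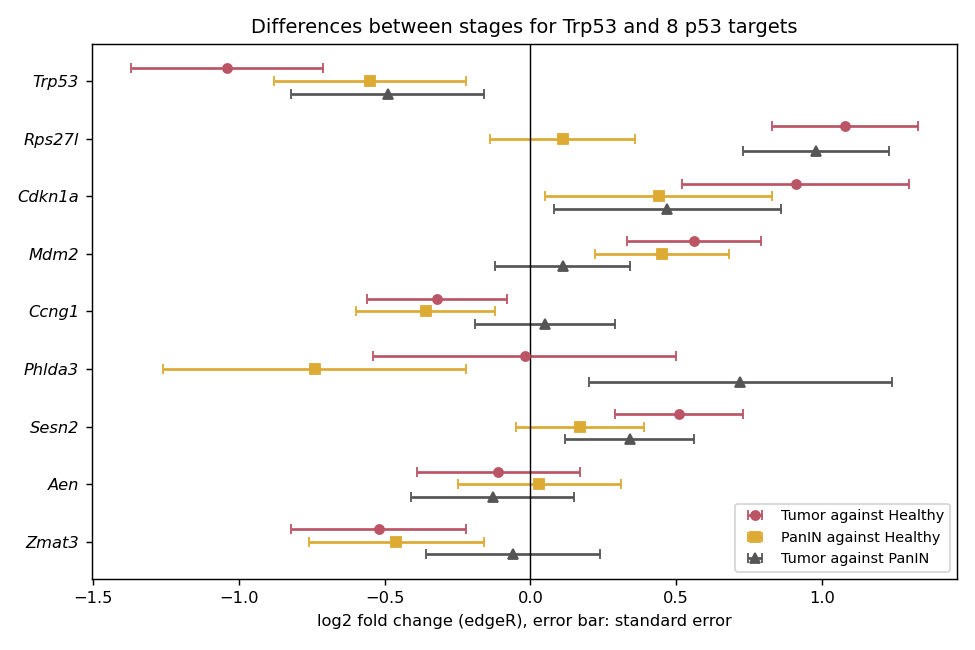
Log2 fold changes (x axis) of Trp53 and 8 p53 targets (y axis) in 3 comparisons, from edgeR, with standard errors as bars. Trp53 at -1.04 and Rps27l at 1.08 were the outermost values for Tumor against Healthy, and Rps27l stood near 0 for PanIN against Healthy, at 0.11.

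PanIN against Healthy asked whether the genes already differed where the node drained precursor lesions. Log2 fold changes were smaller in size than in Tumor against Healthy, except those of Phlda3 (-0.74 against -0.02) and Ccng1 (-0.36 against -0.32). None of the 9 passed edgeR's quasi-likelihood test, where 0 of 24133 genes did, and none had an unadjusted p under 0.05, against 10.5% of all genes. DESeq2 called none of the 9 either, and limma-voom with sample weights called 1, Zmat3 (log2 fold change -0.52, adjusted p = 0.0496). The PanIN libraries did not overlap the Healthy ones in 1 gene, Mdm2, against 12.2% of all genes (7.40% higher). Trp53 averaged 71.0 ± 28.7 CPM in PanIN and 104 ± 45.7 CPM in Healthy (SD, n = 3 each; log2 fold change -0.55, SE 0.33), and Rps27l 62.0 ± 14.8 CPM in PanIN and 57.6 ± 11.5 CPM in Healthy (0.11, SE 0.25). Cdkn1a averaged 67.6 ± 16.4 CPM in PanIN and 49.8 ± 31.2 CPM in Healthy (0.44, SE 0.39). Phlda3 had the largest fold change in size, -0.74 (SE 0.52), with 1.76 ± 0.14 CPM in PanIN and 2.94 ± 1.56 CPM in Healthy. Acinar markers were higher in all 3 PanIN libraries than in all others, as given above, and their part in these values was not tested.

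Tumor against PanIN set the later lesion against the earlier one. Rps27l was the only one of the 9 with an unadjusted p under 0.05, where 4.54% of all genes had one (2.02% higher). It averaged 122 ± 22.1 CPM in Tumor and 62.0 ± 14.8 CPM in PanIN (SD, n = 3 each; log2 fold change 0.98, SE 0.25, unadjusted p = 0.00207, adjusted p = 1 by edgeR). None of the 9 passed, where 3 genes of 24133, 0.0124%, did, and none was called by DESeq2. In CPM the libraries did not overlap in 3 of the 9, Rps27l, Cdkn1a and Phlda3, all higher in Tumor, against 15.6% of all genes (8.33% higher). On TPM, Cdkn1a and Phlda3 overlapped and Rps27l did not. There Trp53, Ccng1 and Zmat3 were lower in Tumor without overlap, and the median of all genes on log2(TPM + 1) was -0.16. Trp53 was at 50.4 ± 4.77 CPM in Tumor and 71.0 ± 28.7 CPM in PanIN (log2 fold change -0.49, SE 0.33). Tumor against Healthy and PanIN against Healthy share the Healthy libraries, and each pair of comparisons shares a stage, so their values are not independent.

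Across the 9 libraries Cdkn1a and Trp53 followed the maturation genes in opposite directions. The log2 CPM of Cdkn1a had a Pearson correlation of 0.971 with the maturation mean (exact permutation p = 0.000309, two-sided; 0.00525 after Benjamini-Hochberg adjustment over 17 relations) and a Spearman rho of 0.917 (p = 0.00131, adjusted p = 0.0172, exact permutation). Without Healthy 2 and Tumor 1, the libraries farthest from the median of the maturation mean, r was 0.98. In the 6 libraries that do not carry the shared title code r was 0.996. Trp53 had r = -0.90 (exact permutation p = 0.00224, adjusted 0.019) and rho = -0.90 (p = 0.00203, adjusted 0.0172, exact permutation). Here r was -0.705 without Healthy 2 and Tumor 1 and -0.926 in the 6 libraries. Healthy 2 weighed on both: without it r was 0.906 for Cdkn1a (adjusted p = 0.0662, exact permutation) and -0.75 for Trp53 (adjusted p = 0.149, exact permutation), and neither was called. The 3 libraries within the code are too few for a correlation of their own. The permutations, here and for the relations with Trp53 below, moved libraries freely across stages. The maturation mean was higher and Trp53 lower in every Tumor than in every Healthy library. Stage and maturation therefore cannot be told apart in these p-values. Rps27l had r = 0.483 with maturation (exact permutation p = 0.188, adjusted 0.291), and the other 6 members had no adjusted p under 0.05.

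Between Trp53 and its targets 2 of the 8 relations were called, those of Cdkn1a and Ccng1. Of 10 alternatives, 4 lost the call of Cdkn1a and 6 that of Ccng1. Cdkn1a had r = -0.872 with Trp53 (exact permutation p = 0.0049, adjusted 0.0278; rho -0.783, adjusted 0.0976), and r = -0.492 without Healthy 2 and PanIN 3, the libraries farthest from the median of Trp53. Ccng1 had r = 0.837 with Trp53 (exact permutation p = 0.00883, adjusted 0.0375; rho 0.567, adjusted 0.186), and r = 0.454 without them. In those 6 libraries r was -0.94 for Cdkn1a and 0.857 for Ccng1. The other 6 had no adjusted p under 0.05 over the 9 libraries. Without Healthy 2 and PanIN 3, r was -0.674 for Rps27l, against -0.405 with them. It was -0.568 against -0.339 for Mdm2 and -0.679 against -0.534 for Sesn2. The sign turned for Aen (-0.553 against 0.529), Phlda3 (0.532 against -0.394) and Zmat3 (0.756 against -0.0494).

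**Figure D3:**
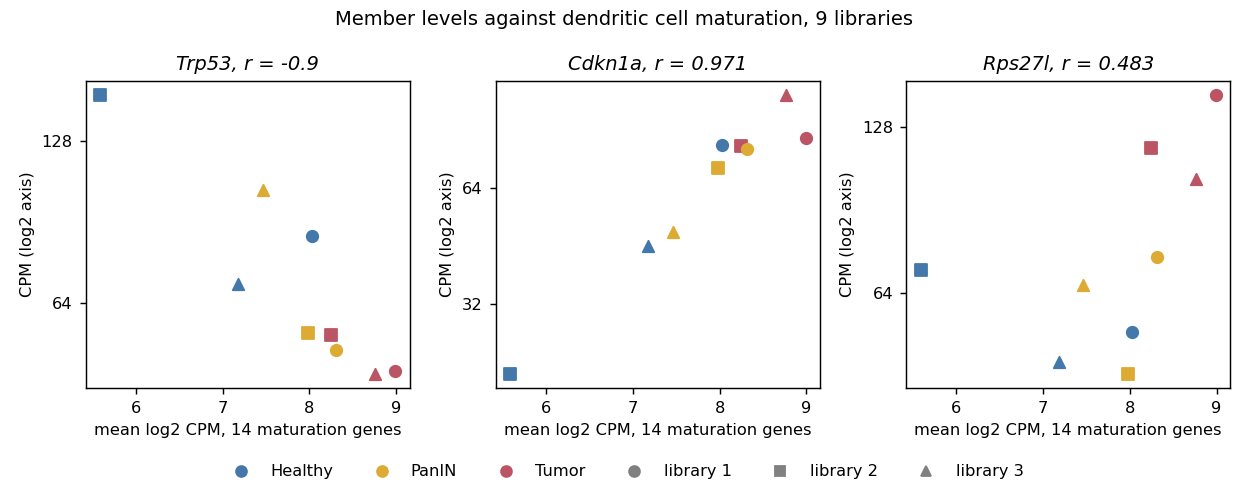
CPM of Trp53, Cdkn1a and Rps27l (y axes, log2 scale) against the mean log2 CPM of 14 maturation genes (x axes) in 9 libraries, colored by stage and shaped by library number, with Pearson r in each title. Cdkn1a follows the maturation mean (r = 0.971), Trp53 runs against it (r = -0.90), and Rps27l is highest in the 3 Tumor libraries (r = 0.483).

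The genes most like these 2 were looked up as a description, among the 7615 protein-coding genes whose log2 CPM averaged 4 or more over the 9 libraries. Those with the highest r to Trp53 were Cldn1, a tight junction protein (0.982), Entpd1, the ectonucleotidase CD39 (0.952), Hepacam2 (0.95), Ash2l, a subunit of histone H3K4 methyltransferases (0.95), and Snx19 (0.946). Cldn1 had 17.0, 23.2 and 19.1 CPM in Tumor, against 40.8, 87.9 and 28.9 CPM in Healthy, with 24.8, 28.2 and 47.1 CPM in PanIN. Among those most like Cdkn1a were Swap70 (0.983), Mab21l3 (0.978), the hexose transporter Slc2a6 (0.978) and the ubiquitin ligase Cblb (0.975). Swap70, which acts on the cytoskeleton of migrating dendritic cells, had 559, 433 and 589 CPM in Tumor, against 451, 124 and 234 CPM in Healthy. The best of 7615 genes over 9 libraries reach high values by selection, so no test was made.

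The deposited transcripts split the genes further. Cdkn1a RNA came almost wholly from its main start: the share of the gene's TPM from that start was 96.6%, 90.3% and 98.8% for Healthy, 92.6%, 98.7% and 94.5% for PanIN and 99.3%, 98.2% and 97.3% for Tumor. The upstream start, whose window holds the p53 element printed above, was above 0 in 4 libraries. Its shares were 0.746% in Healthy 1, 9.07% in Healthy 2, 3.12% in PanIN 1 and 0.536% in Tumor 3. These shares rest on few reads, with 29.7 estimated counts in Healthy 2 and 37.1 in PanIN 1. As a share of counts, the Healthy 2 value was 3.70%. For Rps27l, the transcript that starts 269 bases into the gene, near the later start whose window holds the other element, made up 7.95% ± 1.35 of TPM for Healthy, 9.43% ± 3.86 for PanIN and 5.65% ± 2.33 for Tumor (SD of 3 libraries). The main transcript, Rps27l-201, held 84.2% ± 1.70 in Tumor and 82.0% ± 8.52 in Healthy.

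Mdm2 is known to have a second, p53-responsive promoter inside its first intron. Deposited transcripts that start 466 to 736 bases into the gene held 57.8%, 74.8% and 65.1% of Mdm2 TPM in Tumor, against 68.0%, 50.1% and 56.3% in Healthy, with 66.6%, 51.6% and 38.7% in PanIN. The stages overlapped, and whether these starts mark that promoter was not tested. The largest single transcript was Mdm2-209, annotated as a target of nonsense-mediated decay, with 59.6% ± 7.86 in Tumor and 38.7% ± 6.41 in Healthy (SD, n = 3 each). Its 3 Tumor values, 54.4%, 68.6% and 55.8%, lay above the 3 Healthy ones, 46.0%, 36.0% and 34.0%, and no test was made on transcripts. As shares of counts the same libraries had 59.8%, 77.5% and 69.1% in Tumor, against 70.6%, 49.8% and 49.7% in Healthy, which overlap. Of Trp53, the 1772-base coding transcript Trp53-201 held 52.9% ± 14.5 of TPM in Healthy, 42.1% ± 26.1 in PanIN and 70.9% ± 15.9 in Tumor. The 1771-base Trp53-203, which has the same start, was listed at 0 TPM in all 3 Tumor libraries and in PanIN 1, and held 52.7% in PanIN 2 and 22.8%, 21.7% and 3.61% in Healthy. A value of 0 for one of several alike transcripts can be a failed estimate, so the split is less certain than the sum. In Trp53, 21.0% of the 31-base words of the main transcript are shared with its pseudogene, which had at most 1 count in any library.

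**Figure D4:**
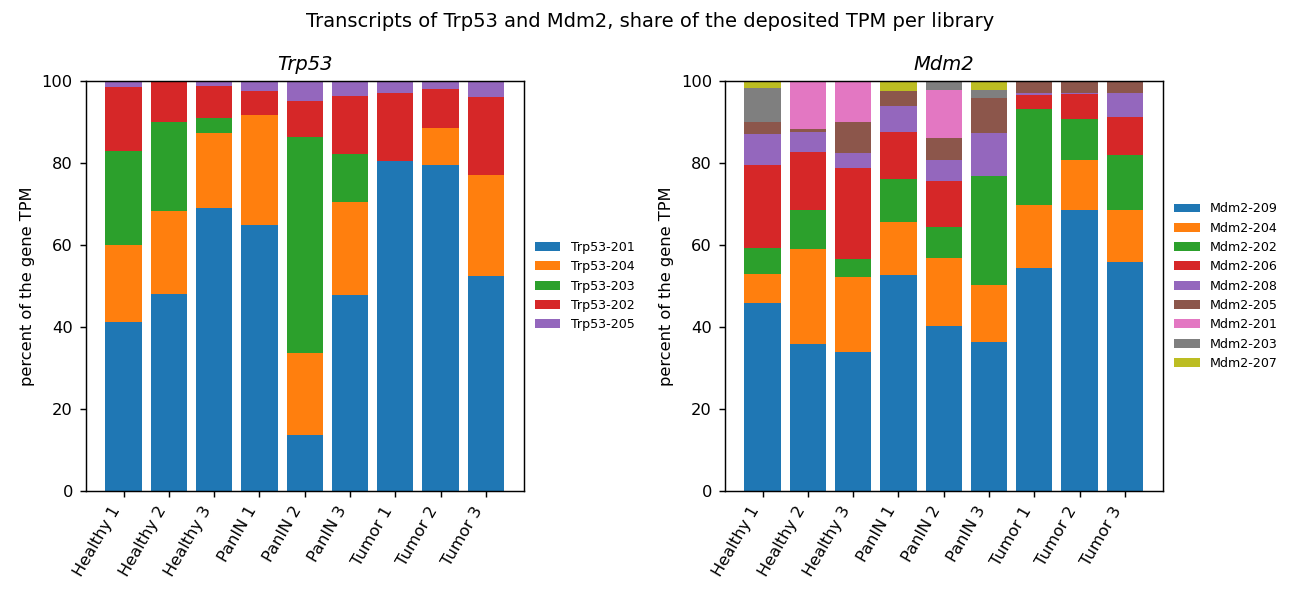
Share of the deposited TPM of Trp53 and Mdm2 (y axes, percent) held by each annotated transcript in each library (x axes), as stacked bars that sum to 100. Trp53-203 is absent from the 3 Tumor bars, and Mdm2-209 runs from 34.0% to 46.0% in Healthy and from 54.4% to 68.6% in Tumor. Shares of counts, which are not drawn, overlap between these stages for Mdm2-209.

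Among 23 regulators and cofactors of p53, the clearest values belonged to Mdm4 and Atm. Mdm4, the Mdm2 relative that blocks p53 activity, stood at 146, 107 and 178 CPM in Tumor and 161, 213 and 236 CPM in PanIN, against 104, 74.8 and 69.7 CPM in Healthy. In CPM, all Tumor and PanIN libraries lay above all Healthy ones. On TPM the PanIN libraries did, but Tumor 2 (12.7) lay below Healthy 1 (16.9). The log2 fold change was 1.29 (SE 0.27, unadjusted p = 0.000378, adjusted p = 0.256) for PanIN against Healthy and 0.79 (SE 0.26, unadjusted p = 0.0108, adjusted p = 0.17) for Tumor against Healthy, both by edgeR. Of its 31-base words, 27.6% are shared with the pseudogene Mdm4-ps, so its counts are less certain. Atm, the kinase that signals DNA breaks to p53, stood at 8.47, 7.82 and 9.82 CPM in Tumor, against 18.7, 28.6 and 20.6 CPM in Healthy and 13.9, 24.0 and 23.2 CPM in PanIN. In CPM, Tumor lay below all 6 other libraries, but on TPM Tumor 1 (6.96) lay above Healthy 3 (6.17). The log2 fold change of Atm in Tumor was -1.38 against Healthy (SE 0.29, unadjusted p = 0.000446, adjusted p = 0.149) and -1.23 against PanIN (SE 0.29, unadjusted p = 0.0011, adjusted p = 1), by edgeR. The related kinase Atr was higher in PanIN than in Healthy (0.54, SE 0.22, unadjusted p = 0.0299, adjusted p = 0.457 by edgeR), and the damage adaptor Trp53bp1 lower in Tumor than in Healthy (-0.49, SE 0.20, unadjusted p = 0.0346, adjusted p = 0.245). In Tumor against Healthy, 0 of the 23 passed edgeR. At an unadjusted p under 0.05, 2 leaned higher (Mdm4 and the acetyltransferase Kat5), where 6.82% of all genes did, and 2 lower (Atm and Trp53bp1), where 11.0% did. In Tumor against PanIN 2 leaned lower, Atm and the acetyltransferase Ep300, where 2.52% of all genes did. Kat5 and Ep300 were named after their values were seen. A positive log2 fold change was seen for 10 of 23 in Tumor against Healthy, where 43.5% of all genes were positive, for 17 in PanIN against Healthy (42.5%) and for 7 in Tumor against PanIN (45.8%). On log2(TPM + 1) these counts were 12, 21 and 3, on a scale where the median of all genes was -0.046, 0.11 and -0.16 in these comparisons.

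Other p53 targets were grouped by what they do. Of 12 apoptosis genes, 11 were tested and Eda2r was not, and 0 passed edgeR after adjustment. Of the 11, 3 were higher in Tumor than in Healthy at an unadjusted p under 0.05, where 6.82% of all genes were. On the log2 scale 10 of the 11 were positive (median 0.53), where 43.5% of all genes were positive and their median was -0.11. Dram1, a lysosomal protein that promotes autophagy, had 7.01, 5.20 and 6.76 CPM in Tumor, against 2.79, 0.945 and 2.17 CPM in Healthy (log2 fold change 1.68, SE 0.46, unadjusted p = 0.00319, adjusted p = 0.168 by edgeR). Pmaip1, which encodes the BH3-only protein Noxa, had 221, 209 and 201 CPM in Tumor, against 163, 114 and 88.1 CPM in Healthy (0.79, SE 0.27, unadjusted p = 0.0129, adjusted p = 0.175). The death receptor Fas had 65.5, 36.7 and 57.6 CPM in Tumor, against 35.7, 4.01 and 20.7 CPM in Healthy (1.40, SE 0.62, unadjusted p = 0.0418, adjusted p = 0.263). The 3 genes did not overlap between these stages, where 9.02% of all genes were higher in Tumor without overlap. Bax, the pore-forming protein of mitochondria, was at 0.53 (SE 0.25, unadjusted p = 0.0514) and overlapped. In PanIN against Healthy 9 of the 11 were positive, where 42.5% of all genes were, with a median of 0.41, and 2, Dram1 and Pmaip1, were higher at an unadjusted p under 0.05, where 4.82% of all genes were. The maturation mean was also higher in Tumor, as given above, and its part in these values was not tested.

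**Figure D5:**
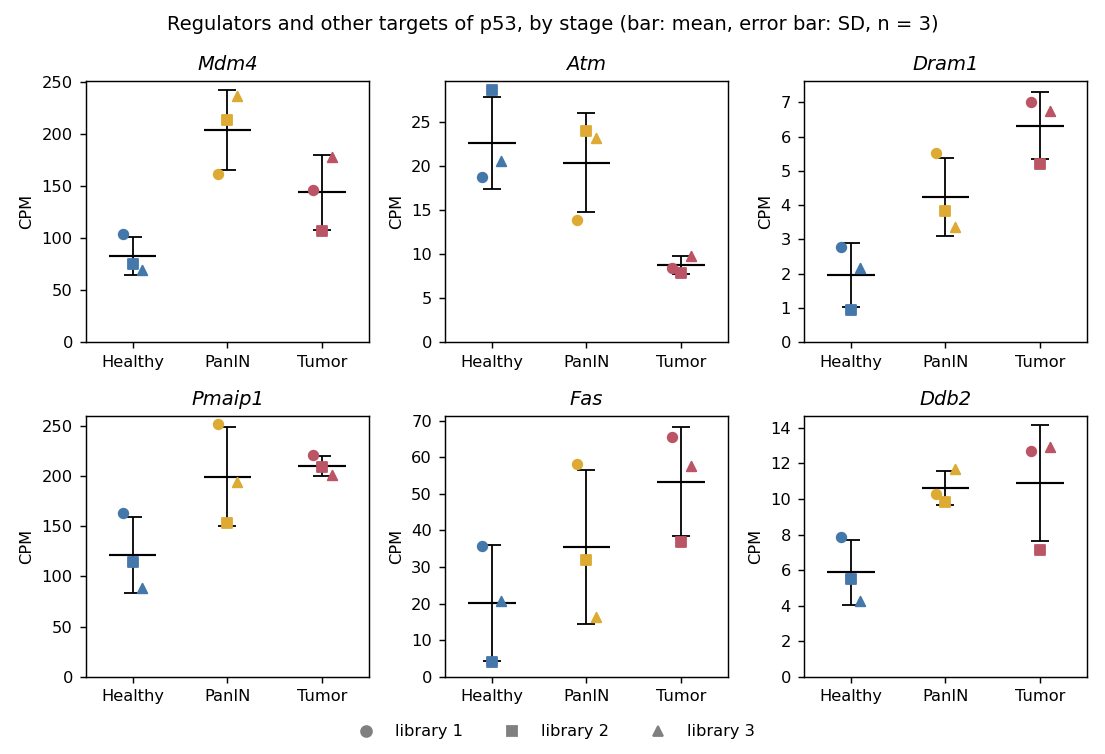
Levels of 2 regulators (Mdm4, Atm) and 4 other targets of p53 (Dram1, Pmaip1, Fas, Ddb2) in CPM (y axes, from 0) by stage (x axes), with a point for each library, a bar for the mean and an error bar for the SD of 3 libraries. Atm in Tumor, at 7.82 to 9.82 CPM, lay below all other libraries, and Mdm4 in Healthy, at 69.7 to 104 CPM, lay below all others.

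Of 8 further cell cycle arrest genes, 0 passed and 0 had an unadjusted p under 0.05 in any of the 3 comparisons by edgeR, with 3 positive in Tumor against Healthy. Among them Gadd45a, a growth arrest protein, was at 0.74 (SE 0.36) and the phosphatase Ptpn14 at -0.96 (SE 0.46). Of 5 DNA repair genes 0 passed, and Ddb2, a sensor of ultraviolet damage, was higher in Tumor (0.89, SE 0.34, unadjusted p = 0.0227, adjusted p = 0.207) and in PanIN (0.86, SE 0.34, unadjusted p = 0.0279, adjusted p = 0.457) than in Healthy, by edgeR. Ercc5, a nuclease of nucleotide excision repair, was lower in Tumor than in PanIN, without overlap (-0.60, SE 0.26, unadjusted p = 0.0376, adjusted p = 1 by edgeR). Of 8 genes of metabolism and stress, 7 were tested and Gdf15 was not, and 0 passed. Ak1, adenylate kinase 1, was lower in Tumor than in Healthy (-1.27, SE 0.50, unadjusted p = 0.025, adjusted p = 0.216) and in PanIN than in Healthy (-1.08, SE 0.50, unadjusted p = 0.0497, adjusted p = 0.477), where 5.65% of all genes were lower at that threshold, and Dcxr, a carbonyl reductase, higher in Tumor than in PanIN (0.60, SE 0.24, unadjusted p = 0.0297, adjusted p = 1). Of the p53 relatives, Trp73 reached at most 0.879 CPM and Trp63 had too few counts to be tested.

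Genes of cell division that p53 is known to lower through p21 gave no call. Of 14 such genes, 0 passed edgeR and 0 had an unadjusted p under 0.05 in any of the 3 comparisons, as against 17.8%, 10.5% and 4.54% of all genes. By edgeR 11 of the 14 were positive in Tumor against Healthy, where 43.5% of all genes were, 6 when PanIN was set against Healthy and 9 when Tumor was set against PanIN. On log2(TPM + 1) these counts were 13, 14 and 6. Top2a, the topoisomerase of dividing cells, went against most of the 14 in Tumor against Healthy (log2 fold change -0.47, SE 0.55, by edgeR). It had 55.4, 124 and 62.2 CPM in Tumor, against 69.6, 230 and 37.2 CPM in Healthy. On log2(TPM + 1) its sign turned, to 0.46. The 14 genes summed to 157 to 829 CPM in Healthy, 342.5 to 585 CPM in PanIN and 299.8 to 670.4 CPM in Tumor. The Healthy libraries held both ends of this range. Healthy 2, which was lowest in Cdkn1a and highest in Trp53, was at the top. Healthy 3 was at the bottom, though its Cdkn1a, at 45.3 CPM, was also below all Tumor and PanIN libraries. The relation of these genes with Cdkn1a was not tested. Cdkn1b, a paralog of Cdkn1a that encodes p27, stood at 86.7, 69.5 and 70.2 CPM in Tumor and 82.8, 85.1 and 115 CPM in PanIN, against 64.5, 57.5 and 38.3 CPM in Healthy (PanIN against Healthy 0.82, SE 0.25, unadjusted p = 0.00572, adjusted p = 0.457 by edgeR). Ccng2, the paralog of Ccng1, stood at 102, 101 and 153 CPM in Tumor, against 96.2, 50.1 and 56.3 CPM in Healthy (0.81, SE 0.31, unadjusted p = 0.0213, adjusted p = 0.202 by edgeR).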

How the data were processed

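RNA of cDC1 from 9 mouse libraries was made into stranded libraries, per the labels' protocols. Per the submitters' processing notes, Salmon and mm10 were used, and the authors deposited estimated counts and TPM (transcript abundance per length and depth) of each transcript. The sources used here give no version of Salmon, and the deposited files' names mention another quantifier, sailfish. Estimated counts are not normalized, and their split between alike transcripts and pseudogenes is a model's estimate.

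Of 136288 transcripts, 136176 matched the GENCODE M21 annotation (GRCm38), with 99.963% or more of every library's counts; 112 were left out. Counts were summed to genes and rounded. The test was edgeR 4.0.16 (R 4.3.3): TMM factors, filterByExpr defaults (minimum count 10, total 15), 1 quasi-likelihood fit over 9 libraries with stage as the only term, and Benjamini-Hochberg adjustment over 24133 genes at 0.05. Standard errors are of the log2 fold change. CPM use TMM factors. An exact permutation test of 3 against 3 libraries has a smallest p of 0.1. Alternatives used DESeq2 1.42.0 and limma 3.58.1, also on log2(TPM + 1) and log2(TPM + 0.1). Scripts were checked on simulated data.

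The genes described and all lists were chosen with earlier results of these data known. The text names all 9 genes, up to 4 genes of each other list with the smallest p over the 3 stages, and paralogs, relatives and markers by level. One gene among those most like Cdkn1a is not reported here.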

Additional observations from a re-analysis of the deposited data

How the results depend on the processing

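No paired analysis by replicate number was possible because the labels carry none; the title code shared by 1 library of each stage was a term in a fit instead. Of 573 alternative values of the 9 genes, 525 kept direction and side of the threshold, 6 gained a call and 42 changed sign. The values within the shared title code have no test, and were counted as kept wherever their sign held. None of the 9 was called in the main test, so a kept side means no call. Genes called by the main test were few, and DESeq2 called 1627 for Tumor against Healthy, 206 for PanIN against Healthy, 37 for Tumor against PanIN and 1069 for any difference, with 1 of the 9 genes in the first and 1 in the last. With no filter on low counts these were 1041, 123, 33 and 855, with 2 and 1 of the 9; with voom weights 1986, 3409 and 3248 (the first, second and last), each with 1 of the 9. The title code term gave 1 for Tumor against PanIN and 3 for any difference, and the fit of only the groups compared gave 0 for Tumor against PanIN. The limma fit on log2(TPM + 1) gave 4 for PanIN against Healthy and 8 for any difference, and on log2(TPM + 0.1) 3 for PanIN against Healthy. Leaving out 1 library gave 2 to 2177 for Tumor against Healthy (0 to 1 of the 9), 0 to 6 for PanIN against Healthy, 1 to 7 for Tumor against PanIN and 0 to 1360 for any difference (0 to 1 of the 9); the highest counts were without Healthy 2. The causes of these changes were not tested. Chosen after seeing the data were a maturation term (621, 1, 1 and 2 genes), leaving out Healthy 2 with Healthy 3 (3 for PanIN against Healthy), the split by title code (1 for PanIN against Healthy outside it), the summing of genes with shared words and the TPM scale for lists.

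Signs changed for 8 of the 9 genes, all but Trp53, most of them near 0 in the main test. The exceptions were Cdkn1a (0.91 and 0.44 against Healthy, 0.47 for Tumor against PanIN) and Ccng1 (-0.32 and -0.36 against Healthy). In Tumor against Healthy, Phlda3 was 0.12 and 0.25 on log2(TPM + 1) and log2(TPM + 0.1), 0.21 outside the title code and -0.39 to 0.33 with 1 library left out. Aen was 0.32 by voom, 0.60 with the maturation term, 0.40 without Healthy 2 and 3, 0.35 within the code and -0.30 to 0.20 with 1 left out; with the maturation term Cdkn1a was -0.19 and Ccng1 0.18. In PanIN against Healthy, Aen was -0.0015 by DESeq2, -0.0020 with RLE factors, -0.10 outside the code and -0.17 to 0.33 with 1 left out, and Ccng1 0.055 and 0.061 on the TPM scales. There Rps27l was -0.048 by voom, -0.10 outside the code and -0.045 to 0.29 with 1 left out, Cdkn1a -0.16 by voom, -0.13 with the maturation term, -0.30 without Healthy 2 and 3 and -0.035 within the code, and Sesn2 -0.061 within the code. In Tumor against PanIN, Mdm2 was -0.35 and -0.37 and Ccng1 -0.48 and -0.50 on the TPM scales, where the median of all genes moved to -0.16 and -0.34. Mdm2 was -0.092 and Aen 0.012 within the code, Cdkn1a -0.066 and Aen 0.15 with the maturation term, and Zmat3 0.058 outside the code. With 1 left out, Zmat3 ran from -0.19 to 0.024 and Ccng1 from -0.0034 to 0.12.

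On log2(TPM + 1), the relation of Cdkn1a with Trp53 was -0.564 and of Trp53 with maturation -0.691, both no longer called; Mdm2 with Trp53 was 0.212, Zmat3 with Trp53 0.147 and Zmat3 with maturation 0.016, all with changed sign. With 1 library left out, r ran from -0.946 to -0.676 for Cdkn1a with Trp53, 0.567 to 0.893 for Ccng1 with Trp53, -0.494 to 0.0769 for Phlda3, -0.0223 to 0.861 for Aen and -0.187 to 0.413 for Zmat3 with Trp53. With maturation it ran from -0.934 to -0.75 for Trp53, 0.906 to 0.992 for Cdkn1a, -0.201 to 0.627 for Phlda3 and -0.692 to 0.312 for Zmat3. Without Healthy 2 none of the 4 called relations kept its call. Of the list counts, apoptosis targets positive in Tumor against PanIN moved from 9 of 11 by edgeR to 4 of 11 on log2(TPM + 1).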
